A study of Mus musculus with 53 samples.

Results

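Whole cerebella with and without Insm1 in the granule cell lineage were compared at postnatal day 7 (P7). The experiment holds 5 of the 10 cerebella profiled at that age by single-cell RNA-seq with the Parse Evercode WT v3 split-pool kit. Each library is 1 cerebellum from 1 mouse, dissociated with papain and fixed before barcoding, with no pooling of animals. The controls were 2 littermates carrying the floxed Insm1 alleles (Insm1fl/fl) without Cre. The mutants were 3 mice carrying the same floxed alleles together with Atoh1Cre (Atoh1Cre; Insm1fl/fl), so deletion was directed to cells that express or descend from cells expressing the Atoh1 driver, chiefly granule cell progenitors, and not to the whole cerebellum. Control 1 and mutant 1 were taken with all lobules, whereas control 2 and mutants 2 and 3 were taken without lobules IX and X. Transcript counts were summed per library over every barcode with at least 1000 transcripts and at least 500 genes, and doublets were not removed. This kept 38924 of the 79855 such barcodes in all 10 P7 libraries, between 4779 in mutant 3 and 10711 in control 1, and no barcode was shared between libraries.

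INSM1 is a zinc-finger repressor of developing neurons and endocrine cells, which acts with the KDM1A (LSD1) and RCOR corepressor complex. Granule cell progenitors divide in the external granular layer of the postnatal cerebellum in response to Sonic hedgehog made by Purkinje cells, then leave the cycle, migrate inward and mature into glutamatergic granule neurons. Skeletal muscle is built by a different cascade, in which MYOD1 and MYF5 commit cells to the muscle fate, myogenin and MEF2 factors start differentiation, myomaker and myomixer fuse the cells, and the sarcomere genes follow. The contractile genes are normally silent in neurons, and the title of the study names repression of muscle fate in the neural lineage as its question.

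The 5 sums held between 110748602 transcripts (mutant 1) and 190364942 (control 1), 91.7% to 94.3% of the transcripts deposited for each library, and mitochondrial genes took 0.718% to 0.916% of them. Barcodes with more than 20000 transcripts were 17.3% to 28.7% of the kept barcodes and held 61.4% to 76.4% of the kept transcripts, so the sums weigh such barcodes heavily. Control 1 and mutants 2 and 3 expressed Xist at 1141, 1033 and 1057 CPM (the usual depth-normalised count unit, here scaled by TMM factors), and control 2 and mutant 1 expressed Y-linked genes, so both sexes stood in both groups. In P7 libraries without it Xist was still read at 0.447% of its mean in those that had it, and the Y-linked Ddx3y at 0.281%. The source of that residual signal was not tested. Of 56860 gene names, 23444 had enough counts to be tested. Values after ± are the size of the log2 fold change divided by the square root of the F statistic of edgeR's quasi-likelihood test. They are approximate standard errors and can be too small where counts are low. A gene is said to have risen or fallen where its adjusted p in that test was under 0.05. The Benjamini-Hochberg adjustment was made over the genes tested. By that rule 8318 genes (35.5%) changed, of which 4572 (19.5%) were higher and 3746 (16.0%) lower in the mutants, with a median log2 fold change of 0.03 over all genes tested. Falls were mostly shallow: 2047 of the changed genes rose by more than 1 on the log2 scale, and 334 fell by more than 1. The control libraries and the mutant libraries did not overlap for 14040 of the 23444 genes tested, which is most of them and more than the number called. A lack of overlap, given for single genes below, therefore says little by itself. In sums over a whole cerebellum, fewer cells of a type and less RNA per cell cannot be told apart, and that holds for every level below.

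Insm1 itself was lower in each mutant cerebellum. Its level was 57.9 and 56.1 CPM in the controls and 14.5, 5.72 and 7.66 CPM in mutants 1, 2 and 3. The groups did not overlap, and mutant 1, the mutant taken with all lobules, kept the most. The log2 fold change was -2.62 ± 0.36 (adjusted p = 0.00032). Sums over a library do not tell remaining transcript in deleted cells from transcript of cells that Atoh1Cre does not reach. The related Insm2 was low, at 0.565 and 0.624 CPM in the controls and 0.589 to 0.896 CPM in the mutants, with overlapping groups and an adjusted p of 0.47.

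The 15 largest rises were taken among called genes at 5 CPM or more, without overlap between the groups and without a predicted-gene symbol. Most of them were genes of skeletal muscle, whether or not they were members of the lists below. The exceptions were Gdnf, a secreted trophic factor, and Acta2, an actin on the smooth muscle list. Of 125 genes in lists of muscle regulators, sarcomere proteins, excitation-contraction genes and muscle membrane or energy genes, 124 were tested, 114 rose, 94 of them by more than 2 on the log2 scale, and 1 fell. Their median log2 fold change was 4.56, against 0.03 over all genes. Together they took 0.451% and 0.432% of all counts in the controls and 1.37%, 1.47% and 1.36% in the mutants. All 3 mutants were alike in this, and each stood above both controls. The gain was mostly in the sarcomere list. The excitation-contraction list took 0.255% and 0.215% in the controls and 0.248%, 0.215% and 0.209% in the mutants, so its groups overlapped. Most of that share was Cacna2d1, a gene shared with neurons that fell and whose levels are given below. Of the 27 genes tested in that list, 25 rose.

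Among the determination factors, Myod1, which can turn other cell types into muscle, was already read in the controls. It measured 1.91 and 1.78 CPM there and 13.5, 15.7 and 16.4 CPM in the mutants, a log2 rise of 3.04 ± 0.16 (adjusted p = 4.88e-07). Myf5, the other early determination factor, gave 0 counts in both controls and 4, 4 and 7 counts in the mutants and was too low to test. Myf6 (MRF4), a later member of the same family, gave 2 and 2 counts in the controls against 102, 148 and 93 in the mutants, and it passed the test (adjusted p = 1.67e-06). The upstream muscle progenitor factors did not pass: Pax3, which cerebellar precursors also express, read 251 and 244 CPM in the controls and 241, 214 and 231 CPM in the mutants (adjusted p = 0.44), and Pax7 was at or below 0.22 CPM in all 5 libraries (adjusted p = 0.6).

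Myog, which encodes myogenin, the factor that starts terminal muscle differentiation, went from trace to a plain signal. It measured 0.724 and 0.535 CPM in the controls and 65.4, 73.9 and 77.2 CPM in the mutants, a log2 rise of 6.84 ± 0.30 (adjusted p = 1.39e-07). Vgll2, which encodes a muscle-enriched partner of the TEAD factors, gave 3 and 5 counts in the controls and 398, 337 and 329 in the mutants. Mef2c, a partner of the myogenic factors that neurons also use, rose from 89.1 and 110 CPM to 580, 600 and 610 CPM (log2 2.58 ± 0.14, adjusted p = 5.41e-07). Over the whole list of muscle regulators, 17 of 23 tested members rose and none fell, with a median log2 fold change of 2.58. Cdh15, which encodes the muscle cadherin, rose by 3.32. The 6 members that did not pass were Pax3, Pax7, Eya1, Eya4, Msc and Lbx1.

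The genes of muscle cell fusion rose with the regulators. Mymk, which encodes myomaker, measured 0.274 and 0.217 CPM in the controls and 23.9, 24.8 and 22.3 CPM in the mutants, with a log2 rise of 6.58 ± 0.14 (adjusted p = 1.11e-08). Mymx, which encodes myomixer, measured 0.225 and 0.284 CPM against 6.34, 9.09 and 8.2 CPM (log2 4.95 ± 0.33, adjusted p = 2.09e-06). Jam3, a cell adhesion receptor that myoblasts also use, was at 41.4 and 42.6 CPM in the controls and rose by 1.73 ± 0.08 (adjusted p = 1.98e-07). For all 3 genes the lowest mutant was several-fold above the highest control.

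**Figure D1:**
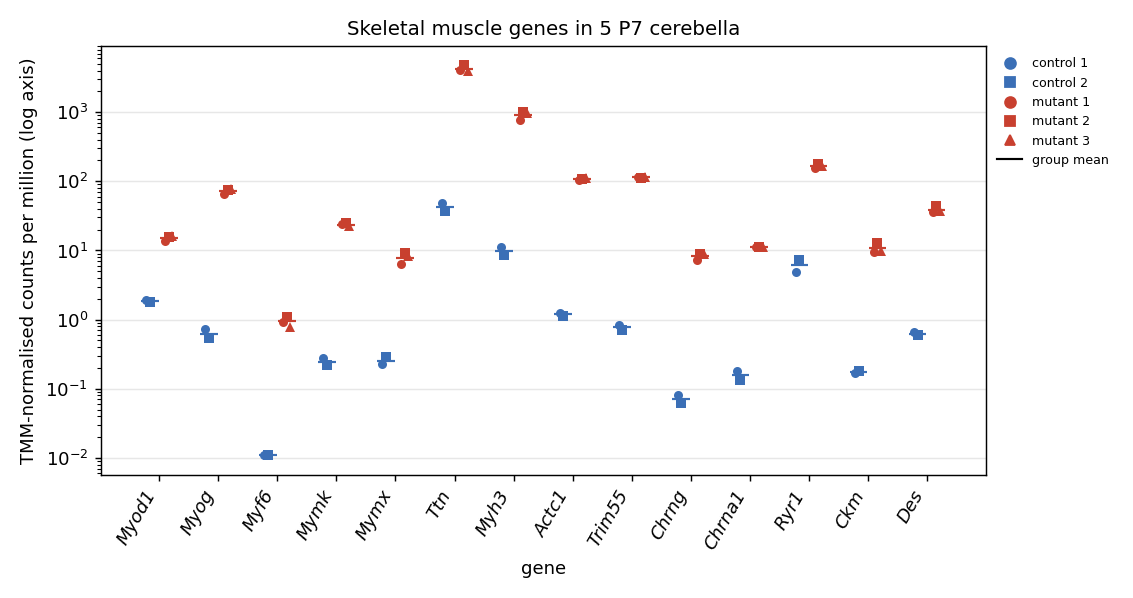
Level of 14 muscle genes in each P7 cerebellum (CPM, log axis), with controls in blue, Insm1 mutants in red, a marker per library and a line at each group mean. Every gene shows the 3 mutants close together and above both controls: Myog lies at 65.4 to 77.2 CPM in mutants against 0.724 and 0.535 CPM in controls, and Ttn at 3918 to 4740 CPM against 48.5 and 36.8 CPM.

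The sarcomere, the contractile unit of striated muscle, gave the most complete response. Of 50 genes tested, 49 rose and none fell, with a median log2 fold change of 5.65. Actn3, alpha-actinin of fast fibres, was the exception, at 0.132 and 0.139 CPM against 0.153 to 0.291 CPM (adjusted p = 0.23). The list as a whole took 0.0321% and 0.0352% of all counts in the controls and 0.797%, 0.925% and 0.811% in the mutants.

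Ttn, which encodes titin, the giant spring of the sarcomere, measured 48.5 and 36.8 CPM in the controls and 4046, 4740 and 3918 CPM in the mutants (log2 6.63 ± 0.27, adjusted p = 9.9e-08). Embryonic myosin heavy chain, Myh3, measured 11.4 and 8.46 CPM against 777, 1006 and 982 CPM (log2 6.54 ± 0.28, adjusted p = 1.29e-07). Cardiac alpha-actin, Actc1, which developing skeletal muscle also uses, went from 1.26 and 1.13 CPM to 105, 107 and 113 CPM (log2 6.51 ± 0.15, adjusted p = 1.7e-08). In all 3 the groups lay far apart and the mutants differed among themselves by less than 1.5-fold.

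Trim55, a ubiquitin ligase bound to titin, had the largest log2 rise of the genes at 5 CPM or more, predicted genes aside. It measured 0.834 and 0.713 CPM in the controls and 114, 112 and 114 CPM in the mutants (log2 7.20 ± 0.22, adjusted p = 2.47e-08). The BTB-Kelch genes Klhl31 and Klhl41, which maintain muscle fibres, rose by 6.31 ± 0.18 and 5.55 ± 0.14. Myom2, an M-band protein, rose by 6.58 ± 0.26, and slow troponin T, Tnnt1, by 6.33 ± 0.19. Myosin genes of adult fast fibres, Myh1, Myh2 and Myh4, rose by 4.16, 3.68 and 4.50, but these neighbours are near copies and their reads may be shared.

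Lincmd1, a long noncoding RNA of muscle differentiation, rose with the coding genes. It measured 2.83 and 3.35 CPM in the controls and 361, 379 and 378 CPM in the mutants (log2 6.91 ± 0.20, adjusted p = 2.03e-08). Further genes of striated muscle stood among the 15 largest rises: Mylk4, a myosin light chain kinase (6.62 ± 0.19), Mettl21e, a methyltransferase of muscle (6.93 ± 0.37), and Dhrs7c, an enzyme of the sarcoplasmic reticulum (6.47 ± 0.27). Synpo2l, which binds actin in striated muscle, rose by 6.28 ± 0.18. None of these 5 is a member of the 4 muscle lists.

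Genes that couple nerve signals to contraction followed. Of 27 tested, 25 rose and 1 fell, with a median log2 fold change of 4.15. Chrng, the fetal gamma subunit of the muscle acetylcholine receptor, measured 0.0823 and 0.0613 CPM in the controls (15 and 11 counts) and 7.34, 8.77 and 8.86 CPM in the mutants, a log2 rise of 6.84 ± 0.28 (adjusted p = 7.99e-08). Chrna1, the alpha subunit that binds acetylcholine, measured 0.181 and 0.134 CPM against 11.2, 11.4 and 11.3 CPM (log2 6.16 ± 0.21, adjusted p = 3.23e-08). The delta and beta subunits of the same receptor, Chrnd and Chrnb1, rose by 6.45 ± 0.23 and 4.15 ± 0.14, and the adult epsilon subunit, Chrne, rose by 3.28. All 5 subunits of the muscle receptor were thus higher in the mutants.

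Ryr1, the calcium release channel of skeletal muscle that Purkinje cells also use, started from 4.95 and 7.21 CPM and reached 155, 176 and 164 CPM (log2 4.76 ± 0.23, adjusted p = 2.74e-07). Cacng1, the gamma subunit of the muscle calcium channel, rose by 4.82 ± 0.15, and Sln, sarcolipin, by 5.71 ± 0.24. The exceptions were the chloride channel Clcn1, at 24.3 to 27.3 CPM in all 5 libraries (adjusted p = 0.88), and Cacna2d1, a calcium channel subunit shared with neurons. Cacna2d1 fell from 2371 and 1912 CPM to 1569, 1142 and 1093 CPM (log2 -0.76 ± 0.18, adjusted p = 0.00864), a call that was lost without control 1 (adjusted p = 0.073).

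Of 24 muscle membrane and energy genes, 23 rose and none fell, with a median log2 fold change of 3.40. Des, which encodes desmin, the intermediate filament of muscle, measured 0.653 and 0.59 CPM in the controls and 36.4, 43.4 and 37.1 CPM in the mutants (log2 5.97 ± 0.17, adjusted p = 2.03e-08). Muscle creatine kinase, Ckm, measured 0.17 and 0.178 CPM against 9.65, 12.8 and 9.74 CPM (log2 5.94 ± 0.26, adjusted p = 1.23e-07). Cav3, the caveolin of muscle membranes, rose by 5.84 ± 0.19. Cox7a1 did not pass (log2 0.38, adjusted p = 0.27). Among the smaller rises were those of dystrophin, Dmd, at 0.82, and delta-sarcoglycan, Sgcd, at 0.35.

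The low control signal of the muscle genes was set against the Xist signal in libraries of the other sex. In sarcomere genes that rose, the control level was 0.681% to 63.1% of the mutant level with a median of 1.97%, and in muscle regulators the median was 12.2%, against 0.447% for Xist. The Xist base is the mean of its carriers over all P7 libraries, whereas the muscle base is the Insm1 mutants alone. The Tead1/2 mutants held larger sarcomere shares (2.68%, 2.52% and 1.79%), so these percentages do not share a base. What part of the control signal comes from other libraries was not tested. The sums over every barcode, which add barcodes with few transcripts, gave smaller rises, such as 5.54 for Ttn and 5.73 for Myog. With barcodes above 20000 transcripts left out, the mutants' mean sarcomere share was 0.512% in place of 0.844%, and all 45 sarcomere genes still tested rose, with a median of 4.76 in place of 5.65. Of 23 membrane and energy genes then tested 20 rose, with a median of 2.29 in place of 3.40. Over every barcode and with thinned barcodes the sarcomere medians were 4.88 and 4.93. Among the regulators, Eya4 was called lower with barcodes above 20000 transcripts left out and with thinned barcodes.

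Smooth muscle, pericytes and heart were looked at beside skeletal muscle. Of 12 smooth muscle and pericyte genes tested, 6 rose and none fell (median log2 fold change 0.69). The rise was large in Acta2, an actin that immature striated muscle also uses (0.181 and 0.15 CPM against 17, 14.7 and 14.8 CPM; log2 6.54 ± 0.27, adjusted p = 9.94e-08), and in desmin. The pericyte channel gene Abcc9, which muscle also uses, measured 4.81 and 7.45 CPM against 32, 31 and 26.2 CPM (log2 2.28 ± 0.26, adjusted p = 8.63e-05), and smoothelin, Smtn, rose by 1.15. Myh11, the defining smooth muscle myosin, and Tagln did not pass (log2 0.61 and 0.41, adjusted p = 0.084 and 0.22), nor did the pericyte genes Pdgfrb, Rgs5 and Kcnj8. The list took 0.00679% and 0.00946% of counts in the controls and 0.0188% to 0.0216% in the mutants. Of 13 heart genes 6 could be tested, and 3 rose and 1 fell (median 1.26), or 2 fell without mutant 1 (median 0.90). The median was 0.11 over the 5 still tested with at most 20000 transcripts a barcode, and 0.14 over 3 with thinned barcodes. Gata4, a transcription factor of heart and endoderm, was called higher on few counts, 11 and 10 in the controls against 60, 24 and 28 in the mutants (log2 2.43 ± 0.54, adjusted p = 0.00601). Sarcolipin, given above, is on this list, and Kcnj3, a potassium channel that neurons share, fell by 0.86. Among the untested members, Nkx2-5, Hand2, Myl7 and Nppb gave 0 to 3 counts in every library. Myh6, an atrial myosin, rose to 0.979 to 1.28 CPM from 0.126 and 0.128 CPM (log2 3.19 ± 0.35).

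Promoter windows of 4 genes are printed because their levels mark the muscle rise and the progenitor fall described here: Myog, Chrng and Lincmd1, which rose, and Dmrta1, a granule progenitor gene that fell. Each is the 250 bases before the annotated start, 5′ to 3′ on the gene's strand, from RefSeq GRCm38.p6. The single-cell gene tables name GRCm39, so windows were matched by symbol alone, and 115 of the 166 genes named had a window. Capitals mark matches, on either strand, to the E-box CANNTG bound by helix-loop-helix factors such as MYOD1, to the MCAT element CATTCC bound by TEAD factors, or to the MEF2 site.
Myog, chr1:134289754-134290003, plus strand: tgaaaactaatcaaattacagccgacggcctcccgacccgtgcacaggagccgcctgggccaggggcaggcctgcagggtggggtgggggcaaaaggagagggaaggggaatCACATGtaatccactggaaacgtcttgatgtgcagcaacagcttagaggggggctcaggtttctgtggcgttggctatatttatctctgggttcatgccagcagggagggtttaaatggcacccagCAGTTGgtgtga
Chrng, chr1:87205561-87205810, plus strand: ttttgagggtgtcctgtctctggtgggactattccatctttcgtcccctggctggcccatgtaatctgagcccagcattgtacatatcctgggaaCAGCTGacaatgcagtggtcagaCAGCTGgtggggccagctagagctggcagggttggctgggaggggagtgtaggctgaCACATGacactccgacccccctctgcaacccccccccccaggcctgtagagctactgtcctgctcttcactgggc
Lincmd1, chr1:20669632-20669881, plus strand: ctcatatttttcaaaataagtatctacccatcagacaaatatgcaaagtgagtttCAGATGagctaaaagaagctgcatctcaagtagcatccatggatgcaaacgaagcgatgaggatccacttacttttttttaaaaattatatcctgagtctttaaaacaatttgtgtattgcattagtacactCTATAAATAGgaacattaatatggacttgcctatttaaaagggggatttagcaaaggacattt
Dmrta1, chr4:89687948-89688197, plus strand: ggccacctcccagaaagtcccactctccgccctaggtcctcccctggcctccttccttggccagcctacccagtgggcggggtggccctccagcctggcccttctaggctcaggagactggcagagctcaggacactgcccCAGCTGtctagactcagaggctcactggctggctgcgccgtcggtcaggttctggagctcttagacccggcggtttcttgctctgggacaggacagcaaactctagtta
Myog held E-boxes 138 and 12 bases before the start, and Chrng held 3, at 155, 132 and 75 bases, the farther pair being CAGCTG. Lincmd1 held an E-box at 195 bases and a MEF2 site at 63 bases, within which a TATAAA match overlaps, and Dmrta1 held a CAGCTG E-box at 109 bases. Over all 32851 windows of this length, 66.2% held CANNTG, 13.0% CAGCTG, 12.6% CATTCC and 2.92% a MEF2 site. These include several windows for some genes and genes not tested. With the first window alone of the 14919 tested genes that had one, as for the sets that follow, the shares were 60.4%, 12.9%, 11.3% and 2.00%. In the 38 sarcomere genes with a window, 31 held CANNTG, 13 held CAGCTG, 13 held CATTCC and 8 held a MEF2 site (81.6%, 34.2%, 34.2% and 21.1%). Of the 11 genes with a window among the 15 largest falls, 9 held CANNTG, 3 CAGCTG, 1 CATTCC and 0 a MEF2 site (81.8%, 27.3%, 9.09% and 0%). Of the 9 with a window among the 15 largest rises, 8 held CANNTG, 3 CAGCTG, 1 CATTCC and 3 a MEF2 site (88.9%, 33.3%, 11.1% and 33.3%). Matches to each pattern were exact, so a stretch that is 1 letter off the MEF2 pattern, such as ctatatttat in the Myog window, is not marked. A match is a run of letters, and binding at these windows was not measured here.

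**Figure D2:**
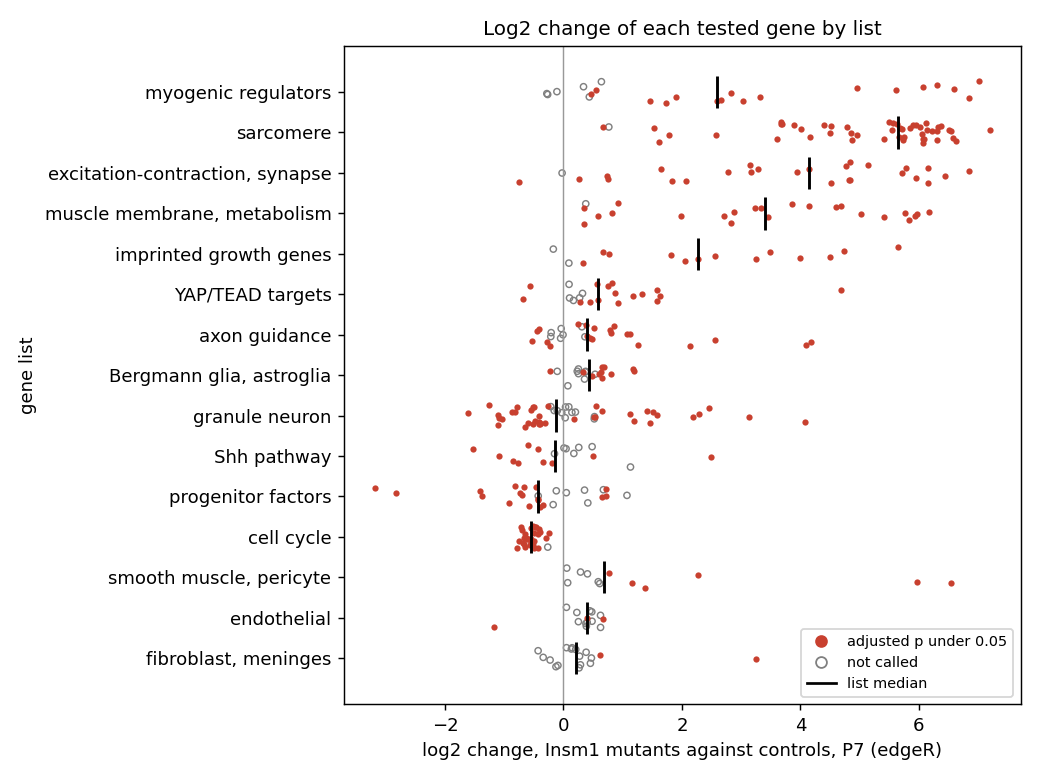
Log2 fold change (mutants against controls at P7) of every tested gene in 15 lists, with red points for genes that passed the test, open points for those that did not and a black line at each list's median. The muscle lists lie far to the right (medians 2.58 to 5.65), the cell cycle list lies to the left of 0 (median -0.55), and the imprinted gene list stands at 2.28.

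Genes of the repressor complex and of the TEAD family themselves shifted. Of 25 genes of INSM1, TEAD and corepressor factors, 9 rose and 10 fell (median log2 fold change -0.03). Tead4, the TEAD factor of muscle and trophoblast, measured 1.29 and 1.57 CPM in the controls and 41.1, 41.6 and 44.6 CPM in the mutants (log2 4.89 ± 0.16, adjusted p = 2.91e-08). Tead1, at 596 and 565 CPM against 728, 722 and 726 CPM, rose by 0.32 ± 0.07 (adjusted p = 0.00435), and Tead2 fell by 0.41 on the log2 scale (adjusted p = 0.00432). The fall of Tead2 was not called once each barcode was thinned to 1000 transcripts (adjusted p = 0.13).

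The TEAD coactivators Yap1 and Wwtr1 (TAZ) rose by 1.01 ± 0.08 and 1.61 ± 0.19. Rest, a repressor of neuronal genes in non-neuronal cells, went from 12.4 and 15 CPM to 35.5, 41.7 and 44.6 CPM (log2 1.57 ± 0.12, adjusted p = 5.98e-06). The corepressors Kdm1a and Rcor2, with which INSM1 works, fell by 0.38 and 0.93. The neuronal zinc-finger repressor genes Myt1 and Myt1l, which hold down non-neuronal programmes, fell by 1.01 and 0.74. Among 21 common YAP and TEAD target genes, 14 rose and 2 fell (median 0.58), including Amotl2 (1.58 ± 0.14), Gadd45b (1.57 ± 0.12) and Ccn2 (1.62 ± 0.24). Ankrd1, the highest of them at 4.68, is also a muscle gene.

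Granule cell progenitor transcription factors fell in most cases. Of 26 tested, 15 fell and 3 rose, with a median log2 fold change of -0.42. Otx1, a homeobox factor of the external granular layer, measured 17.5 and 21.2 CPM in the controls and 2.44, 2.22 and 1.72 CPM in the mutants (log2 -3.18 ± 0.15, adjusted p = 2.31e-07). Dmrta1, a DM-domain factor, measured 9.67 and 10.2 CPM against 1.6, 1.38 and 1.23 CPM (log2 -2.82 ± 0.21, adjusted p = 5.04e-06). With Insm1, these were the 3 largest falls among genes at 5 CPM or more, and the groups were well apart in each.

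Barhl1, a homeobox factor of progenitors and migrating granule cells, was at 107 and 107 CPM in the controls and 56.3, 62.5 and 52 CPM in the mutants (log2 -0.91 ± 0.09, adjusted p = 4.28e-05). Barhl2 fell by 1.38 on the log2 scale. Pax6, a factor of the whole lineage, went from 507 and 427 CPM to 319, 292 and 274 CPM (log2 -0.66 ± 0.08, adjusted p = 0.000198). Atoh1, the gene that the Cre driver is named for and which keeps progenitors immature, was at 12.1 and 14.9 CPM against 7.84, 9.51 and 7.5 CPM (log2 -0.70 ± 0.19, adjusted p = 0.0148). Only the mutants carry Atoh1Cre, so for Atoh1, as for every gene here, the Cre allele and the Insm1 deletion cannot be told apart. The call for Atoh1 was lost without control 2 (adjusted p = 0.115), without mutant 3 (0.0533) or with thinned barcodes (0.0698).

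The 3 that rose were Hes1, a Notch target (0.72 ± 0.18), Hes6, an inhibitor of Hes1 (0.71 ± 0.12), and Otx2, a factor of progenitors of the posterior lobules. Otx2 measured 32.4 and 18.5 CPM in the controls and 50.7, 35.6 and 33.8 CPM in the mutants (log2 0.65 ± 0.23, adjusted p = 0.0474). The 2 libraries with all lobules had the higher Otx2 level in each group, and the call was lost in 7 of 18 alternatives. These were without control 2 (adjusted p = 0.307), mutant 1 (0.139) or mutant 2 (0.058), with RLE scaling (0.0513), with the 5 Insm1 libraries alone (0.105), with a sex term (0.0647) and over every barcode (0.0501). Eomes, a factor of unipolar brush cells, a second rhombic lip neuron, fell by 1.41 on the log2 scale, while 6 of the 10 unipolar brush cell markers rose, or 3 without control 1, and 2 fell.

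Sonic hedgehog readouts were split. Of 17 pathway genes, 8 fell and 2 rose (median log2 fold change -0.15). Gli1, the usual transcriptional readout, measured 31.9 and 30.9 CPM in the controls and 18.9, 16.5 and 16.8 CPM in the mutants (log2 -0.85 ± 0.07, adjusted p = 1.4e-05). Sfrp1, a secreted WNT antagonist and hedgehog-responsive gene of progenitors, fell the most, from 211 and 219 CPM to 77.2, 76.6 and 70.7 CPM (log2 -1.52 ± 0.11, adjusted p = 5.22e-06). Ccnd2, the cyclin of granule progenitors, went from 669 and 717 CPM to 368, 334 and 276 CPM (log2 -1.09 ± 0.13, adjusted p = 0.000127). Groups did not overlap in any of the 3.

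The receptor and target Ptch1 did not pass (log2 0.01, adjusted p = 0.91). The ligand Shh did not pass either (1.13, adjusted p = 0.25). The members that rose were Hhip, a hedgehog-binding inhibitor (0.50), and Cdon, a coreceptor that also acts in myoblasts. Cdon measured 5.65 and 8.2 CPM in the controls and 37.2, 39.6 and 40.3 CPM in the mutants (log2 2.50 ± 0.15, adjusted p = 1.33e-06).

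Cell cycle genes fell together by a modest amount. Of 30 tested, 29 fell and none rose, with a median log2 fold change of -0.55. The exception was Mcm2, at -0.26 (adjusted p = 0.18). Mki67, the proliferation antigen, measured 782 and 842 CPM in the controls and 512, 527 and 483 CPM in the mutants (log2 -0.68 ± 0.07, adjusted p = 7.27e-05). Top2a, the topoisomerase of dividing cells, measured 414 and 434 CPM against 284, 267 and 255 CPM (log2 -0.66 ± 0.07, adjusted p = 6.32e-05). Both groups were tight and apart. The list took 0.31% and 0.328% of counts in the controls and 0.211% to 0.224% in the mutants.

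Inhibitors of cyclin-dependent kinases did not move as a group: 7 of 18 cell cycle exit genes rose and 5 fell (median 0.06). Cdkn1a (p21), which muscle cells raise when they leave the cycle, went from 3.5 and 3.78 CPM to 71.3, 75.1 and 71.1 CPM (log2 4.32 ± 0.12, adjusted p = 2.03e-08). Cdkn1c (p57), an imprinted inhibitor used in muscle and in neurons, went from 8.09 and 11.8 CPM to 204, 234 and 239 CPM (log2 4.50 ± 0.28, adjusted p = 1.3e-06). Cdkn1b (p27), the inhibitor usual in granule cell exit, fell by 0.45, and Cdkn2c (p18) by 0.60. Without control 2 or without mutant 3, 4 exit genes were called higher and 3 lower, and without mutant 2, 3 were lower.

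**Figure D3:**
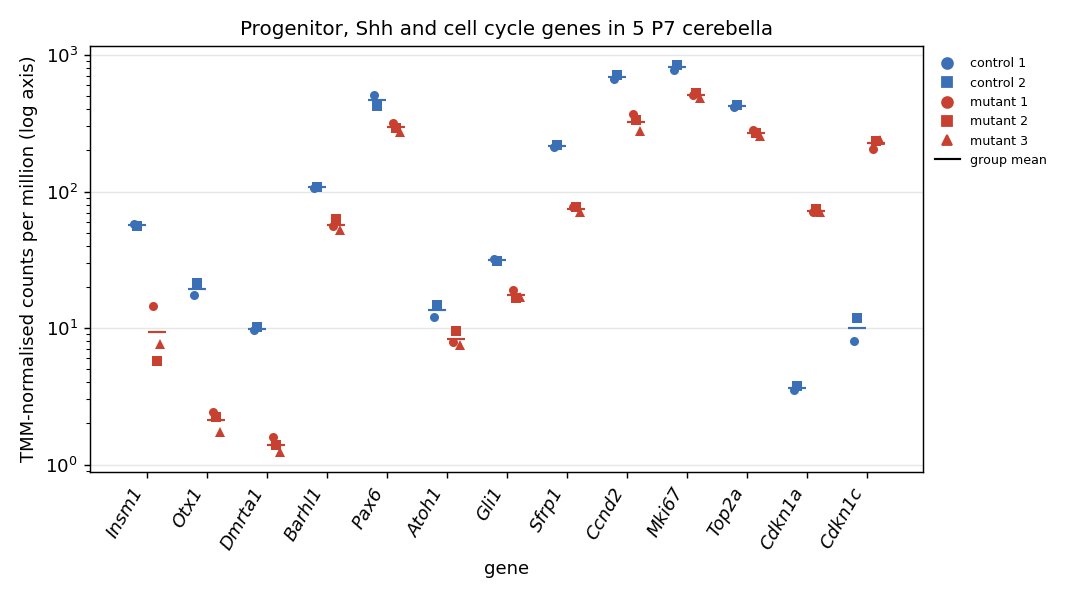
Level of Insm1, progenitor, hedgehog, proliferation and cell cycle exit genes in each P7 cerebellum (CPM, log axis), with controls in blue, mutants in red, a marker per library and a line at each group mean. Otx1 and Dmrta1 fall several-fold and Mki67 and Top2a by less than 2-fold on this scale, while Cdkn1a and Cdkn1c are at 71.1 to 239 CPM in mutants against 3.5 to 11.8 CPM in controls.

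Genes of granule neuron differentiation moved both ways. Of 50 tested, 23 fell and 16 rose, with a median log2 fold change of -0.13. The members that fell included genes of early postmitotic neurons. Neurod1, which starts granule neuron differentiation, measured 520 and 509 CPM in the controls and 292, 242 and 220 CPM in the mutants (log2 -1.03 ± 0.14, adjusted p = 0.000369). Cntn2 (TAG-1), the adhesion molecule of premigratory granule neurons, measured 484 and 322 CPM against 208, 162 and 135 CPM (log2 -1.26 ± 0.20, adjusted p = 0.000893). Slc17a6, the vesicular glutamate transporter of immature granule neurons, was at 115 and 82.2 CPM against 47.2, 28.6 and 21.2 CPM (log2 -1.61 ± 0.35, adjusted p = 0.00555). In each, mutant 1 was the nearest to the controls and did not reach them.

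The members of this list that fell also included axon and synapse genes, among them Snap25 and Tubb3. Snap25, a component of the vesicle fusion machinery, went from 348 and 324 CPM to 177, 148 and 143 CPM (log2 -1.11 ± 0.09, adjusted p = 1.32e-05). Neuronal beta-tubulin, Tubb3, went from 65.1 and 64 CPM to 31.6, 29.9 and 29.5 CPM (log2 -1.09 ± 0.11, adjusted p = 4.19e-05). The growth cone genes Stmn2 and Gap43 fell by 0.86 and 0.81, and the migration gene Dcx by 0.48. Rbfox3 (NeuN), at 2422 and 1910 CPM against 1661, 1570 and 1296 CPM, fell by 0.52 on the log2 scale (adjusted p = 0.0155), and that call was lost without control 1 (adjusted p = 0.147) or mutant 3 (adjusted p = 0.0509).

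The members that rose included subunits that appear late in granule neurons. Grin2c, the NMDA receptor subunit of mature granule cells, measured 0.603 and 0.457 CPM in the controls and 6.89, 10.3 and 9.7 CPM in the mutants (log2 4.08 ± 0.20, adjusted p = 2.93e-07). Gabra6, the GABA receptor subunit that marks mature granule cells, was low in all libraries, at 0.104 and 0.0835 CPM against 0.834, 1.02 and 0.622 CPM (log2 3.13 ± 0.33, adjusted p = 5.53e-05). Gabrd, the delta subunit of an extrasynaptic receptor of the same cells, rose by 2.28 ± 0.36. The early NMDA receptor subunit Grin2b went the other way, from 991 and 753 CPM to 619, 509 and 400 CPM (log2 -0.78 ± 0.22, adjusted p = 0.0181). The call for Grin2b was lost without control 1 (adjusted p = 0.145) or mutant 3 (adjusted p = 0.0582).

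Chn2, Fat2 and Ntrk3 were further members of the list that rose. Chn2, a Rac GTPase-activating protein, measured 58.7 and 76 CPM in the controls and 358, 413 and 345 CPM in the mutants (log2 2.47 ± 0.12, adjusted p = 2.31e-07). Fat2, a protocadherin of granule cells, went from 53.4 and 50.9 CPM to 230, 258 and 221 CPM (log2 2.18 ± 0.16, adjusted p = 3.91e-06). Ntrk3, the neurotrophin-3 receptor, went from 252 and 270 CPM to 703, 774 and 762 CPM (log2 1.51 ± 0.07, adjusted p = 2.26e-07). The mature glutamate transporter Slc17a7 did not share this direction and fell by 0.59, and Cbln1 and Cbln3, further mature granule genes, did not pass (adjusted p = 0.083 and 0.5). Late genes of granule neurons were thus found in both directions.

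**Figure D4:**
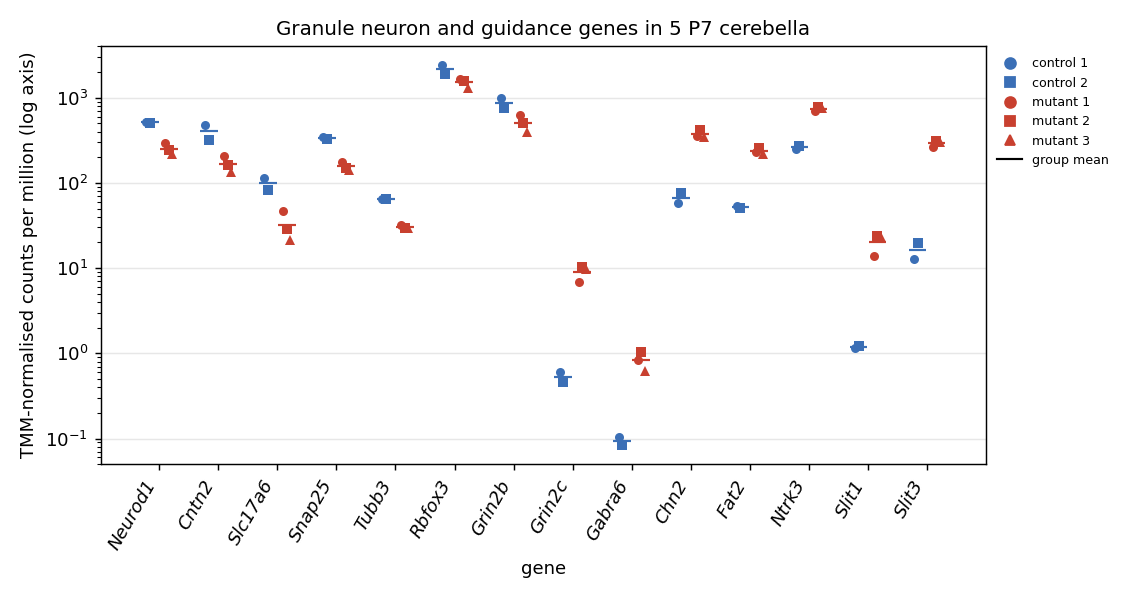
Level of 14 genes of granule neuron differentiation and axon guidance in each P7 cerebellum (CPM, log axis), with controls in blue, mutants in red, a marker per library and a line at each group mean. Neurod1, Cntn2, Slc17a6, Snap25, Tubb3, Rbfox3 and Grin2b are lower in all 3 mutants than in both controls, and Grin2c, Gabra6, Chn2, Fat2, Ntrk3, Slit1 and Slit3 are higher.

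Axon guidance genes were mostly higher: 16 of 28 rose and 5 fell (median log2 fold change 0.39). The repellent ligand Slit3 measured 12.7 and 19.7 CPM in the controls and 267, 312 and 301 CPM in the mutants (log2 4.18 ± 0.18, adjusted p = 1.19e-07). Its relative Slit1 measured 1.16 and 1.21 CPM against 13.7, 23.8 and 23.1 CPM (log2 4.09 ± 0.24, adjusted p = 1.03e-06). The netrin receptors Unc5a and Unc5b rose by 2.14 ± 0.12 and 1.25 ± 0.14. Dcc, the attractive netrin receptor and among the genes with most counts, went from 8881 and 8916 CPM to 6518, 5994 and 5991 CPM (log2 -0.53 ± 0.11, adjusted p = 0.00332), and the ligand Ntn1 fell by 0.44. Without control 1 the median of the guidance list was 0.25 in place of 0.39. The list took 1.85% and 1.89% of counts in the controls and 1.70%, 1.66% and 1.65% in the mutants, so its share was lower in the mutants.

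Imprinted growth genes rose. Of 15 tested, 13 rose and none fell, with a median log2 fold change of 2.28. H19, a noncoding RNA of fetal tissue and muscle, measured 11.2 and 14.7 CPM in the controls and 643, 638 and 661 CPM in the mutants (log2 5.64 ± 0.20, adjusted p = 4.18e-08). Its neighbour Igf2, a growth factor that the meninges make in the brain, went from 80.3 and 91.5 CPM to 848, 781 and 815 CPM (log2 3.25 ± 0.15, adjusted p = 1.53e-07). From the Dlk1 and Meg3 domain, Dlk1 rose by 4.74 ± 0.24, Mirg by 3.98 ± 0.17, Rian by 3.48 ± 0.21 and Meg3 by 2.28 ± 0.31. The members that did not pass were Ndn (-0.17, adjusted p = 0.58) and Snrpn (0.09, adjusted p = 0.56). Of the other 16 fibroblast and meningeal genes tested besides Igf2, only Col1a1 passed, with a rise of 0.62 ± 0.18 that was lost without control 1, control 2, mutant 1 or mutant 3 (adjusted p = 0.0633, 0.145, 0.0516 and 0.0755), with at most 20000 transcripts a barcode (0.0704) or with thinned barcodes (0.0659).

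Secreted signals included Gdnf, a trophic factor that muscle and glia make for neurons. It measured 0.132 and 0.156 CPM in the controls and 11.8, 17.9 and 16 CPM in the mutants (log2 6.72 ± 0.27, adjusted p = 7.41e-08). The activin antagonist Fst, follistatin, rose by 4.25 ± 0.17. In the list of WNT, BMP and growth factor genes, 12 of 28 rose and 4 fell (median 0.46, or 0.31 without control 1). Among receptors and channels of neurons, 7 of 28 rose and 12 fell (median -0.18), and the nicotinic subunit Chrna4 rose by 3.16 ± 0.17.

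Among called genes at 5 CPM or more, without group overlap or a predicted-gene symbol, the 15 largest falls came from several kinds of gene. After Otx1, Dmrta1 and Insm1 itself, the next were Nrg1 and Gprin3. Nrg1, the neuregulin ligand, measured 2333 and 2143 CPM in the controls and 674, 461 and 437 CPM in the mutants (log2 -2.09 ± 0.20, adjusted p = 3.14e-05). Gprin3, which acts with G proteins in neurites, went from 198 and 175 CPM to 60.7, 37.5 and 34.6 CPM (log2 -2.08 ± 0.23, adjusted p = 7.79e-05). Erbb4, the neuregulin receptor, fell by 0.81 and the kainate receptor gene Grik2 by 1.00. The others among the 15 largest falls were Cyp11a1, Trp73, Kcnh8, Scg2, Adamtsl3, Vipr1, Galr1, Slc17a6, En1 and Plekha6, between -1.87 and -1.60. Neither Nrg1 nor Gprin3 passed at P2 (log2 -0.02 and -0.33, adjusted p = 0.97 and 0.2).

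Markers of cells that Atoh1Cre does not target were compared on the same sums, and their part in the results above was not tested. Over all genes tested, 19.5% were higher and 16.0% lower. Marker counts near or below these shares, here and in the next paragraph, therefore say little about a cell type by themselves. Bergmann glia and astrocyte genes took 0.154% and 0.185% of counts in the controls and 0.207% to 0.235% in the mutants, with 10 of 20 higher and 1 lower. Without control 1, 6 were higher, and none was lower without control 2 or any 1 of the mutants. Purkinje markers took 0.491% and 0.608% against 0.62% to 0.739%, with 4 of 15 higher and 2 lower. Without control 1, or without mutant 3, 0 Purkinje markers were called higher, without mutant 2 there was 1, and without control 2 there were 10. Microglial genes took 0.0138% and 0.0132% against 0.023% to 0.0284%, with 6 of 16 higher, or 2 without either control in turn and 3 without mutant 2 or mutant 3.

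Of 18 oligodendrocyte genes 2 were higher, or 10 without control 2 and 1 without control 1, mutant 2 or mutant 3. Of 14 endothelial genes 2 were higher and 1 lower, with 0 higher without control 1, mutant 1 or mutant 3, 4 higher without mutant 2 and 6 without control 2. GABAergic interneuron genes showed 5 of 16 higher and 1 lower, with 2 higher without control 1, mutant 2 or mutant 3 and 3 without mutant 1. The alpha-globin and beta-globin genes of red blood cells, whose near copies share reads, were lower, with Hba-a1 at 7.49 and 3.17 CPM in the controls and 1.21, 1.72 and 2.45 CPM in the mutants (adjusted p = 0.0315). No globin gene was called without control 1, mutant 1 or mutant 2, with dissection or library number as a block, or over every barcode, where the list's median was -0.70 in place of -1.50. Immediate early genes, which dissociation can raise, had 6 of 15 higher and 1 lower, and Fos measured 6.46 and 6.56 CPM against 14.8, 14.5 and 16.9 CPM (log2 1.24 ± 0.16, adjusted p = 0.000213).

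The same genes were read at postnatal day 2 (P2) in bulk RNA from other animals, 4 Insm1fl/fl controls and 4 Atoh1Cre; Insm1fl/fl mutants with 29507827 to 42125727 expected counts each. At P2, 136 genes passed (0.696% of 19554), 94 higher and 42 lower in the mutants. Of 16231 genes tested at both ages, 133 passed at P2 and 6534 at P7, and 122 passed at both, which is 91.7% of the P2 calls and 1.87% of the P7 calls. Of those 122, 85 were higher at both ages and 36 lower at both. The exception, Fibcd1, a receptor for acetylated sugars, fell at P2 (log2 -0.85) and rose at P7 (log2 1.92), where it was at 0.285 and 0.334 CPM in the controls and 0.979 to 1.31 CPM in the mutants.

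At P2 Insm1 was at 30.8, 31.5, 56.6 and 71.9 CPM in the controls and 10.7, 8.48, 16.2 and 15.3 CPM in the mutants (log2 -1.91 ± 0.30, adjusted p = 0.0189). Myog was at 0.483, 3.93, 0 and 0.0899 CPM in the P2 controls and 35.1, 26.6, 18.9 and 24.9 CPM in the P2 mutants (log2 4.51 ± 0.75, adjusted p = 0.0241). Ttn was at 14.4, 20.1, 12.5 and 15 CPM against 87.9, 93.7, 67.1 and 112 CPM (log2 2.54 ± 0.18, adjusted p = 0.000255). Groups did not overlap in any of the 3, and control 2 was the highest of the P2 controls for Myog and Ttn. Of 38 sarcomere genes tested at P2, 29 rose, with a median log2 fold change of 2.08, and 5 of 18 muscle regulators rose. Myod1 did not pass at P2 (log2 1.67, adjusted p = 0.0734).

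Of 26 progenitor factors 3 were lower at P2 and none higher (median -0.05), and of 17 hedgehog genes 1 was lower and none higher (median -0.14). Otx1 was at 1.72, 1.56, 2 and 3.15 CPM in the P2 controls and 0.319, 0.205, 0.235 and 0.0639 CPM in the mutants (log2 -3.29 ± 0.37, adjusted p = 0.00333). Sfrp1 was at 49, 46.5, 49.9 and 54.3 CPM against 19.6, 23.7, 21.8 and 23.9 CPM (log2 -1.17 ± 0.08, adjusted p = 0.000255). Dmrta1 fell by 1.79 (adjusted p = 0.00272) and Barhl2 by 1.14 (adjusted p = 0.049). Gli1, Barhl1 and Ccnd2, which fell at P7, did not pass at P2 (adjusted p = 0.092, 0.0895 and 0.298). None of the 30 cell cycle genes passed at P2 (median -0.14), and Mki67 was at -0.26 (adjusted p = 0.28). Among exit genes, Cdkn1c was 0.79 higher (adjusted p = 0.00721), and Cdkn1a did not pass (-0.22, adjusted p = 0.7). Of 50 granule differentiation genes 2 were higher at P2, Grin2c at 0.92 (adjusted p = 0.0173) and Calb2, a calcium buffer, at 0.40 (adjusted p = 0.0242). The ages differ in assay, depth and animals, and the difference between them was not tested.

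**Figure D5:**
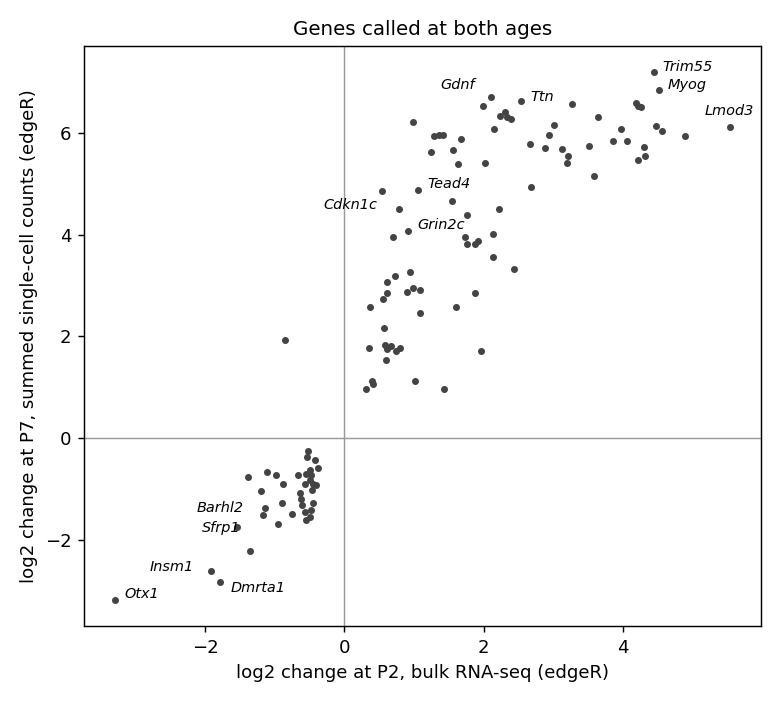
Log2 fold change (mutants against controls) at P2, bulk RNA, against that at P7, summed single-cell counts, for the 122 genes that passed at both ages. Points lie in the upper right (85 genes) and lower left (36 genes), with Fibcd1 the exception, and the muscle genes Trim55 (7.20) and Myog (6.84) have the highest P7 values and Lmod3 (5.54) and Ckm (4.89) the highest P2 values.

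The effect was set against that of deleting Tead1 and Tead2 with the same Cre at P7, in 3 Atoh1Cre; Tead1fl/fl; Tead2fl/fl mutants and 2 Tead1fl/fl; Tead2fl/fl controls of their own. In those libraries Tead2 was at 30 and 31.9 CPM in the controls and 9.2, 7.69 and 7.29 CPM in the mutants. Tead1 was at 631 and 630 CPM against 1181, 1319 and 1130 CPM, and which part of it is floxed is not given in the sources used here, so that count does not check the labels. The difference of the effects (Insm1 minus Tead1/2, log2) passed for 950 genes (4.05%), 388 above 0 and 562 below. Of 50 sarcomere genes, 33 had a smaller rise after Insm1 deletion, and Nebl, which encodes nebulette, had a larger one. The list's median was 5.65 for Insm1 and 7.20 for Tead1/2. Excitation-contraction genes showed 16 of 27 below 0 and none above, membrane and energy genes 12 of 24 below and none above, and muscle regulators 5 of 23 below and none above.

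Among the regulators, the muscle cadherin gene Cdh15 differed by -2.61 ± 0.33 (adjusted p = 0.00537), Myod1 by -2.38 ± 0.24 (adjusted p = 0.00215) and the fusion gene Mymk by -1.56 ± 0.22 (adjusted p = 0.0077). For Myod1, the Tead1/2 controls read 0.3 and 0.41 CPM, below the 1.91 and 1.78 CPM of the Insm1 controls, and their mutants 12.5, 17.4 and 14.7 CPM, beside 13.5, 15.7 and 16.4 CPM in the Insm1 mutants. The difference for Myog did not pass (-0.54, adjusted p = 0.472). In the other direction, Otx1 fell further after Tead1/2 deletion, to 0.241 to 0.335 CPM (difference 2.74 ± 0.24, adjusted p = 0.00113). Slit1 rose more after Insm1 deletion, with Tead1/2 controls at 3.73 and 3.4 CPM and mutants at 6.55 to 7.86 CPM (difference 3.11 ± 0.30, adjusted p = 0.0018). Chn2 and Grin2c also rose more after Insm1 deletion (differences 1.65 ± 0.15 and 2.04 ± 0.27, adjusted p = 0.00158 and 0.00655). The number of genes passing this test ranged from 193 without Tead1/2 control 2 to 1199 without Tead1/2 mutant 3.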

How the data were processed

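P7 libraries were single-cell RNA-seq of whole cerebella, and P2 libraries were bulk RNA-seq. For P7 the authors deposited raw transcript counts per barcode, not normalized, and per the file headers the genome is GRCm39. For P2 the values are expected counts from RSEM that the authors deposited, rounded here to whole numbers, and the 4 controls and 4 mutants were matched by column name. Aligner settings and use of strand in counting are not stated by the labels or headers used here, so overlapping and antisense genes may share reads. Counts were summed per library over kept barcodes (at least 1000 transcripts and 500 genes), and gene IDs of 1 name were added.

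P7 sums were fitted with edgeR 4.0.16 (quasi-likelihood, TMM, filterByExpr on the 5 Insm1 libraries) over all 10 libraries in 4 genotype groups, which leaves 6 residual degrees of freedom, in R 4.3.3. Genes were called at a Benjamini-Hochberg adjusted p under 0.05. Each library is 1 animal, and p-values rest on the spread between these few animals, estimated with information shared across genes and over the 4 groups. At P7 dissection differs within every group and sex within both Insm1 groups, so that spread holds these as well. No replicate pair was a copy (chi-square per degree of freedom 38.3 to 97.7). On simulated data the P7 test recovered 87 of 100 genes changed by 1 on the log2 scale and 100 of 100 changed by 2, with 12 unchanged genes called of 23699 run. For P2 it recovered 99 and 100 of 100, with 11 unchanged genes called of 19365. In both simulations all genes shared 1 spread, 200 well-counted genes were changed and the rest were not. In the real P7 data genes differ in spread and 35.5% were called, so these rates need not hold there.

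Genes were named by rule: among called genes at 5 CPM or more, without overlap and without a predicted-gene symbol, the 15 largest rises and falls, the 10 smallest p and 10 highest levels, the 4 smallest p of each of 29 lists, and fixed genes of the pathway. Some genes that the rule names are not reported here. Another 14 were added after their values were seen (Mymx, Ryr1, Pax6, Ccnd2, Cntn2, Snap25, Tubb3, Grin2b, Gabra6, Mef2c, Fibcd1, Cacna2d1, Pax3, Pax7), as were further list members named as exceptions or examples. The members and lists were chosen with earlier results of these data known. The alternatives were DESeq2 1.42.0, other scaling, filters, blocks and barcode limits, and leaving out each library. Promoter windows came from the RefSeq table of GRCm38.p6, and no whole genome or protein table was used.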

Additional observations from a re-analysis of the deposited data

Results flagged for a closer look

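Of the 165 named genes tested, 45 differed between the Insm1 and the Tead1/2 deletion at P7 by edgeR's test of the difference itself. Over all 23444 genes tested, 950 did (4.05%). The named genes were picked largely by their Insm1 effect and many are muscle genes, so their share does not stand for all genes. Differences are given as the Insm1 log2 change minus the Tead1/2 log2 change. In 32 of the 45 named genes the rise was smaller after Insm1 deletion. From the list of muscle regulators these included Myod1 (-2.38), Mymk (-1.56) and Mef2c (-0.75), and outside that list Lincmd1 (-1.14) and Tead4 (-1.13). Among contractile genes they were Myh6 (-2.45), Myom2 (-1.95), Klhl31 (-1.77), Ttn (-1.69), Myh3 (-1.58), Synpo2l (-1.56), Klhl41 (-1.37), Mylk4 (-1.32), Tnnt1 (-1.28) and Actc1 (-1.13). Excitation-contraction genes with a smaller rise were Chrnd (-2.30), Ryr1 (-2.17), Chrna1 (-2.02), Sln (-1.68), Chrnb1 (-1.02) and Cacng1 (-1.02). Ckm (-1.70) and Des (-1.33) stood for the membrane and energy genes. The remaining genes with a smaller rise were Mirg (-1.64), H19 (-1.40), Igf2 (-1.31), Trp63 (-1.25), Fst (-0.98), Nt5e (-0.77), Tead1 (-0.62), Cdkn1a (-0.60) and Cdh22 (-0.60).

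A larger rise after Insm1 deletion was found in 6 genes, Slit1 (3.11), Grin2c (2.04), Chn2 (1.65), Slit3 (1.40), Unc5b (0.79) and Ntrk3 (0.40). A smaller fall was found in 6 genes, Otx1 (2.74), Cyp11a1 (1.87), Tead2 (1.54), Adgrb3 (0.85), Rbfox3 (0.84) and Barhl1 (0.55), of which Tead2 is itself deleted in the other mutants. Fibcd1 (2.03) rose after Insm1 deletion and had a log2 change of -0.10 after Tead1/2 deletion.

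At P2 a lone sample stood far from the other 3 of its group for several muscle genes. Control 2 was the highest of the controls for Myog (3.93 CPM), Myh3 (4.20 CPM) and Actc1 (5.41 CPM). Mutant 3 was the lowest of the mutants for Myh3 (24.2 CPM). For Ckm, control 1 was the lowest at 0 CPM, which is about 1 count below the other controls (0.0269 to 0.0303 CPM) and no more than counting error, and mutant 1 was the highest at 1.32 CPM, and for Mef2c control 3 was the highest at 59.8 CPM. These are 7 such samples in 66 groups of 4 examined, the controls and mutants of the 33 named genes called at P2. The limit used is passed by chance in about 1 in 20 independent, unselected groups. Many of these genes are muscle genes and all were picked by their P2 call, so that rate does not apply here.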

How the results depend on the processing

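The P7 count of 8318 genes lay between 6145 and 8464 under DESeq2, RLE scaling, no TMM factor, no filter, the 5 Insm1 libraries alone, a sex term and other barcode limits, and between 5755 and 7678 when 1 Insm1 library was left out. With each barcode thinned to 1000 transcripts, 14948 genes could be tested and 3900 were called. Without a TMM factor the split was 5128 higher and 2913 lower. Of the 152 named genes called, 127 kept direction and call under each of the 18 alternatives that tested them, and none of the 152 reversed. Ccdc153 and Pax7, neither of them called, ranged from -1.18 to 0.022 and from -0.62 to 0.15 when a library was left out. Shares of counts under other barcode limits were chosen after seeing the data: the mutants' mean sarcomere share was 0.512% at up to 20000 transcripts and 0.544% thinned, in place of 0.844%, and the cell cycle share was 0.206% and 0.195%, in place of 0.218%. The list counts without single libraries were also added after seeing the data. Whether library numbers pair the samples could not be told at P7, where same-numbered deviations correlated at 0.0378 and -0.02. The deviations of 2 controls are mirror images, and each P7 library numbered 1 was taken with all lobules. At P2 same-numbered deviations correlated between -0.252 and 0.395, and those of different number between -0.568 and 0.501. With a replicate block the counts were 8241 (dissection) and 7442 (library number) at P7, 851 for the difference from Tead1/2 (dissection) and 64 at P2. The difference from Tead1/2 gave 950 genes, 2130 with DESeq2 and 193 to 1199 without 1 library. The P2 count of 136 was 315 with DESeq2, 212 with no filter, and 67 (without mutant 4) to 132 (without mutant 1). The cause of these differences was not tested. The 2 controls at P7 limit the precision, and the lowest genes rest on few counts, such as 2 in each control for Myf6.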

Other observations

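Several genes outside the muscle and granule lists were also far from the controls. Trp63, the p53 relative of epithelial stem cells, was read at 1.21 and 0.897 CPM in the P7 controls and 33.2, 33.1 and 36.3 CPM in the mutants (log2 5.02 ± 0.17), and it was the only 1 of 6 liver and skin genes tested that passed, while the keratin Krt10 was at -0.14 (adjusted p = 0.59). Its relative Trp73, a gene of Cajal-Retzius cells, fell by 1.84 on the log2 scale. Folr1, a folate receptor of choroid plexus, went from 0.165 and 0.0613 CPM to 2.6, 2.96 and 3.16 CPM (log2 4.67 ± 0.40), whereas Ttr, the defining choroid plexus gene, was at 0.00 (adjusted p = 1). Atp2b3, a plasma membrane calcium pump, rose by 3.96 ± 0.10, and Syne1, a nuclear envelope protein of muscle and Purkinje cells, by 2.19 ± 0.06, from 166 and 164 CPM to 747, 756 and 762 CPM.

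Within the Purkinje list the members went apart: Lhx1 fell by 1.37 on the log2 scale and Foxp2 by 0.83, and the other 13 markers had log2 fold changes above 0, of which 4 passed and 9 did not. Among the genes with most counts, the nuclear factor I genes Nfib and Nfia fell by 0.39 and 0.42, the adhesion gene Lsamp by 0.91, and the noncoding RNA Malat1 rose by 0.30 ± 0.07.

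Mutant 1, the mutant taken with all lobules, lay nearest to the controls for 210 of the 334 genes that fell by more than 1 on the log2 scale (62.9%) and for 1085 of the 2047 that rose by more than 1 (53.0%). Mutants 2 and 3 were nearest for 75 and 49 of the falls and for 429 and 533 of the rises. Insm1 itself was highest in mutant 1 of the mutants. Dissection, sex and animal differ together between these 3 libraries and cannot be told apart.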
